A study of Mus musculus with 12 samples.

Results

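The SLC7 amino acid transporters and their CD98 heavy chain were followed through 9 genes, Slc7a1, Slc7a2, Slc7a3, Slc7a5, Slc7a6, Slc7a7, Slc7a8, Slc7a11 and Slc3a2, taken by name out of 27179 gene IDs in the count tables, and all 9 were found. The cells were NIH3T3, an immortalized line of mouse embryonic fibroblasts, without endogenous RelA (RelA-/-), the p65 subunit of NF-κB, and with a fusion of RelA to the red fluorescent protein DsRed, a background that every group of the study shared. The labels describe 4 groups of 3 samples, held for 2 h in microfluidic devices with IL-1b at 0.2 ng/mL, LPS at 100 ng/mL, PAM at 0.2 ng/mL or media, from which polyA RNA was sequenced. Each of the 9 tables labelled LPS, PAM or media repeated the table of IL-1 replicate 3 byte for byte, so only the 3 IL-1 libraries could be described and no stimulus was compared with media. Whether IL-1 raised or lowered any of these genes is therefore not shown here.

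The 3 IL-1 libraries held 17254518 to 18578859 counts. CPM below are counts per 1e6 counts of the library, and the spread is the SD over the 3 libraries, which may be technical, since the labels do not say whether they came from separate cultures. Reads were taken to fall along the whole transcript, which was not checked here. Levels were therefore compared between genes per kb of length, with merged exons unless another length is named. Rela had 37.1, 30.5 and 38.9 CPM in replicates 1, 2 and 3, and gene counts do not separate the fusion from the deleted allele. All 10 fibroblast markers reached 1 CPM in every library, against 0 of 6 epithelial, 0 of 5 endothelial and 4 of 7 macrophage markers. In bulk RNA, fewer cells of a type and less RNA per cell cannot be told apart.

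The SLC7 family has 2 arms. The cationic amino acid transporters (CATs) are glycoproteins that work alone and carry arginine, lysine and ornithine. The light chains reach the plasma membrane joined by a disulfide bond to a heavy chain, for the 5 light chains here CD98hc, also named 4F2hc, the product of Slc3a2. Light chains decide which amino acids are exchanged, while the heavy chain gives the pair its place in the membrane and also binds integrin tails. When amino acids run short, the kinase GCN2 raises the translation of the transcription factor ATF4, which switches on transporters and amino acid synthesis enzymes through C/EBP-ATF composite elements in their promoters, and Slc7a11, Slc7a5 and Slc3a2 are known targets of that response.

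To show where such elements could be read, promoters of the members that match one, Slc7a11 and Slc7a7, and of the heavy chain are given as the 250 bases before an annotated start, from RefSeq on build GRCm38.p6, each read 5′ to 3′ on the minus strand. Capitals mark TGATGNAA, the core of the C/EBP-ATF element, on either strand (TTGCATCA is TGATGCAA read on the other strand).
Slc7a11, chr3:50443614-50443863: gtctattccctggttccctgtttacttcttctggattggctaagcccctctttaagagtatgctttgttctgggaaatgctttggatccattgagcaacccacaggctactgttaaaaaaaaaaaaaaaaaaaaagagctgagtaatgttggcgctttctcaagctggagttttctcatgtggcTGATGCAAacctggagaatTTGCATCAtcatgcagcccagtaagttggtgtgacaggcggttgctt
Slc7a7, chr14:54417703-54417952: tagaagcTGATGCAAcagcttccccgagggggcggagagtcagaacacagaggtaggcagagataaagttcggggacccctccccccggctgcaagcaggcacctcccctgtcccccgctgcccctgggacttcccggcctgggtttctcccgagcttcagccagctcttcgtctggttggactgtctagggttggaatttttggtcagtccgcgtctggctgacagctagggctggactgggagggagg
Slc3a2, chr19:8713898-8714147: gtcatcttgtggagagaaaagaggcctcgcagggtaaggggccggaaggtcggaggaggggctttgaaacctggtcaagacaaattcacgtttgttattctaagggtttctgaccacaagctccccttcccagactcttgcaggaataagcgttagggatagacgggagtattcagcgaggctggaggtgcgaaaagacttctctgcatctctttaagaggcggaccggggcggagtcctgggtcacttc

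The 1 listed Slc7a11 promoter held 2 copies facing each other, 66 to 59 and 47 to 40 bases before its annotated start at 50443613. At least 1 copy was present in 1134 of 32851 promoters of the same length, or 3.45%, and 2 or more in 13, or 0.0396%. The motif was chosen after the Slc7a11 sequence had been read, so this is a description of it. Promoters were listed for 6 of the 9 genes (not for Slc7a2, Slc7a3 and Slc7a5), 12 in all. Every listed start of Slc7a11, Slc7a7, Slc7a6 and Slc3a2 lay inside the gene span given below. For Slc7a11 the upstream end of that span is 50499087. No window before the upstream ends of these spans was searched. Slc7a7 had 1 match in the promoter shown and a TGATGAAA in another, chr14:54417945-54418194. No match was found in the listed windows of Slc7a1, Slc7a6, Slc7a8 and Slc3a2, which says only that these letters are not in those 250 bases. The search also covered the NRF2 core TGACNNNGC, with 1 match each for Slc7a1 and Slc7a6 (10.2% of all promoters), the E-box CACGTG, with none (6.02%), and the NF-κB consensus, both strands of each. An NF-κB match, GGGACTTCCC, lay in 2 overlapping Slc7a7 promoters and in no other listed promoter of the 9 genes, against 3.90% of all promoters. The matches are not binding data.

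Of the 9 genes, 7 reached 1 CPM in every library, here called detected, against 41.3% of all gene IDs, and together the 9 held 1430 ± 17.3 CPM. Per kb of exon the mean level ran from 302 ± 9.27 CPM per kb for Slc3a2 (SD, n = 3) to 0.00368 CPM per kb for Slc7a8, which had 1 count in the 3 libraries together. The 2 genes not detected were the light chain gene Slc7a8 and the cationic transporter gene Slc7a3.

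**Figure D1:**
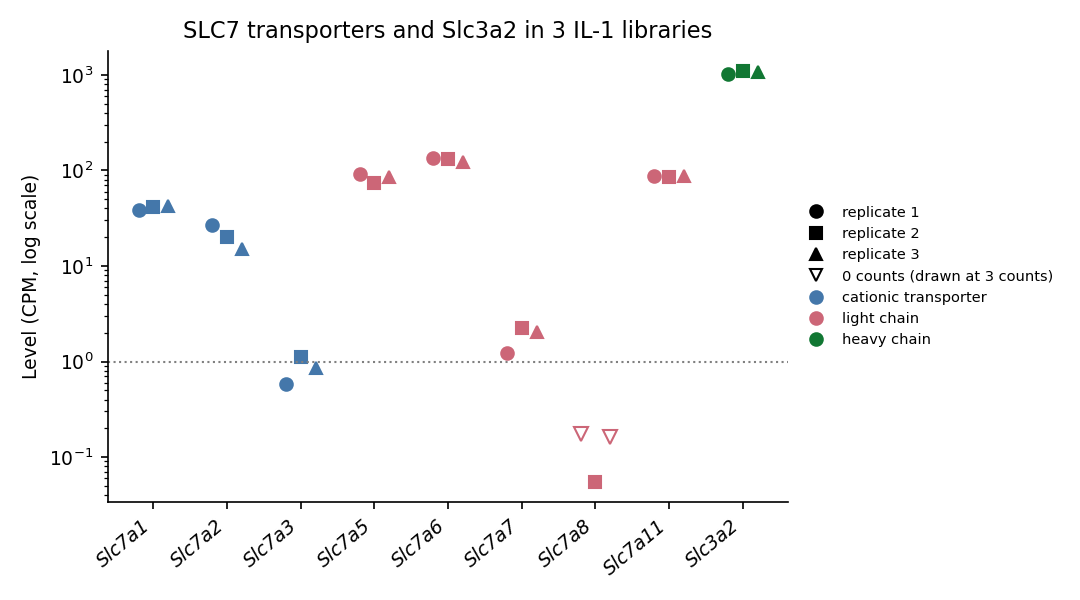
CPM of each gene in each of the 3 IL-1 libraries on a log axis, coloured by role, with the dotted line at 1 CPM. The 3 values of a gene lie close together, except for Slc7a2, Slc7a3 and Slc7a7; Slc7a8 had 0 counts in replicates 1 and 3, drawn as open triangles at 3 counts.

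Slc3a2 (Entrez 17254, chromosome 19, 8706882 to 8723369, GRCm38) had 17752, 19763 and 19951 counts in replicates 1, 2 and 3, or 1029, 1092 and 1074 CPM, a mean of 1065 ± 32.7 CPM (SD, n = 3). These values lay within 1.06-fold of each other. Per kb of exon the heavy chain had rank 133 of the 10783 detected genes with a known length, above 98.8% of them. It was 10.6-fold above the next gene of the set, Slc7a6, by mean CPM per kb.

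Among the light chains, 3 genes carried nearly all the signal. Slc7a6 (chromosome 8, 106168219 to 106198714), which encodes y+LAT2, an exchanger of cationic against neutral amino acids, had 136, 131 and 122 CPM. Slc7a5 (chromosome 8, 121881146 to 121907686), which encodes LAT1, the importer of leucine and other large neutral amino acids, had 92.7, 73.7 and 84.5 CPM. Slc7a11 (chromosome 3, 50364936 to 50499087), which encodes xCT, the antiporter that brings in cystine for glutathione synthesis in exchange for glutamate, had 87.8, 84.6 and 88.5 CPM.

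Per kb, Slc7a6 was the highest light chain in every library, and Slc7a5 varied most of these 3. On the scale of CPM per kb of exon they stood at 28.4 ± 1.48 (Slc7a6), 22.5 ± 2.57 (Slc7a5) and 6.25 ± 0.152 (Slc7a11), SD, n = 3 each. Slc7a6 made up 49.2% ± 2.33 of the summed light chain level per kb, Slc7a5 39.0% ± 2.65 and Slc7a11 10.8% ± 0.503. The ranges of neighbours in this order did not overlap.

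The place of Slc7a11 depended on the length used. Its merged exons span 13922 bases but its coding sequence only 1506, while Slc7a5 has 3708 and 1536. Per kb of coding length Slc7a11 was at 57.8 ± 1.40 and Slc7a5 at 54.4 ± 6.20 CPM per kb. Slc7a11 was then higher in 2 of 3 libraries and the ranges overlapped, so by coding length these genes did not differ beyond their spread. Per kb of the longest transcript, Slc7a5 was at 23.8 ± 2.71 and Slc7a11 at 9.43 ± 0.229 CPM per kb. Slc7a5 was then higher in 3 of 3 libraries without overlap. By coding length Slc7a11 made up 29.3% ± 1.08 of the light chain sum and Slc7a5 27.5% ± 2.06. With no length correction these shares were 28.8% ± 1.07 and 27.6% ± 2.07.

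**Figure D2:**
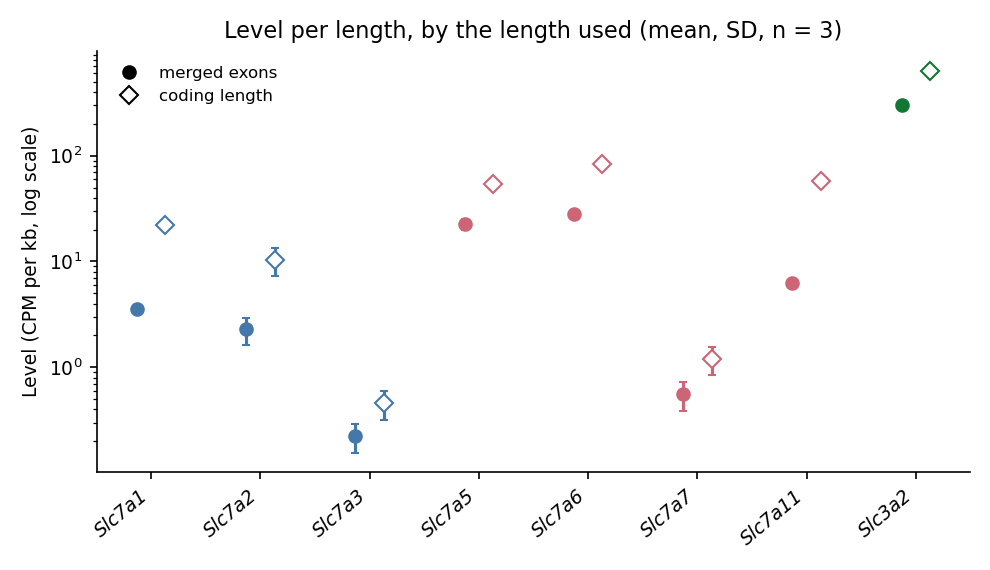
Mean level per kb (log axis, SD over 3 libraries as bars, hidden by the symbol where small) of 8 genes, with merged exons (filled) and with coding length (open); Slc7a8, with 1 count, is left out. With coding length Slc7a11 lies beside Slc7a5, while with merged exons it lies 3.61-fold below.

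The other light chains were scarce. Slc7a7 (chromosome 14, 54369442 to 54420068), which encodes y+LAT1, a relative of y+LAT2 found in kidney, gut and macrophages, had 21, 41 and 38 counts, or 1.22, 2.27 and 2.05 CPM, just above the detection minimum in replicate 1. Its annotated exons share 232 bases with those of Oxa1l on the opposite strand, a mitochondrial membrane insertase gene at 98.7 ± 1.51 CPM, and the strand setting of the counting is not given in the sources used here, so reads of these genes cannot be told apart there. The 7 macrophage markers summed to 24.3, 27.6 and 18.2 CPM in replicates 1, 2 and 3. Of these, Lyz2 (171, 222 and 128 counts), Cd74 (187, 182 and 141), Cd68 (20, 55 and 36) and Csf1r (32, 40 and 27) reached 1 CPM in every library, while Adgre1 (4, 0 and 0), Itgam (2, 0 and 0) and Ptprc (3, 0 and 6) did not. Their part in the Slc7a7 counts was not tested. Slc7a8 (chromosome 14, 54722215 to 54781886), which encodes LAT2, had 0, 1 and 0 counts. Over the 3 libraries that is 0.0185 CPM, with an exact 95% Poisson interval of 0.000470 to 0.103 CPM that covers counting error only.

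Of the cationic transporters, Slc7a1 (chromosome 5, 148327410 to 148399904), which encodes CAT-1, the widespread arginine and lysine importer and receptor of ecotropic murine leukaemia virus, had 38.4, 41.6 and 42.7 CPM. Slc7a2 (chromosome 8, 40862341 to 40922070), which encodes CAT-2, had 27.1, 20.2 and 15.2 CPM. Slc7a3 (chromosome X, 101079146 to 101090452), which encodes CAT-3, known from brain, had 10, 20 and 16 counts, or 0.580, 1.11 and 0.861 CPM, so it passed 1 CPM in replicate 2 only.

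Per kb of exon, Slc7a1 stood at 3.54 ± 0.194, Slc7a2 at 2.28 ± 0.654 and Slc7a3 at 0.224 ± 0.0696 CPM per kb (SD, n = 3 each), in this order in all 3 libraries. Slc7a1 lay above 34.1% of the detected genes with a known length on this scale and Slc7a2 above 24.8%. These places depended on the length correction: by CPM they lay above 57.1% and 39.1% of the detected genes. Splicing of Slc7a2 yields a high-affinity form, CAT-2B, and a low-affinity form, CAT-2A, which gene counts do not separate. Of its exons, 635 bases overlap the opposite-strand lincRNA Gm26584.

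Set against each other, the heavy chain exceeded the sum of the 5 light chains of this set, and the cationic transporters lay far below that sum. In CPM per kb of exon, Slc3a2 had 292, 310 and 304 in replicates 1, 2 and 3, against 61.4, 55.3 and 56.5 for the summed light chains. The ratio was 4.75, 5.60 and 5.38, or 5.24 ± 0.440 (SD, n = 3). The cationic transporters summed to 6.45, 6.11 and 5.60 CPM per kb, 0.105 ± 0.00577 of the light chain sum. The heavy chain was thus higher, and the cationic sum lower, in 3 of 3 libraries. No test was run on these ratios, since 3 paired libraries cannot go below p = 0.25 in a two-sided exact sign-flip permutation test. With coding length the heavy chain ratio was 3.19 and the cationic ratio 0.166, and the direction held. Transcript levels do not give the amounts of protein.

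**Figure D3:**
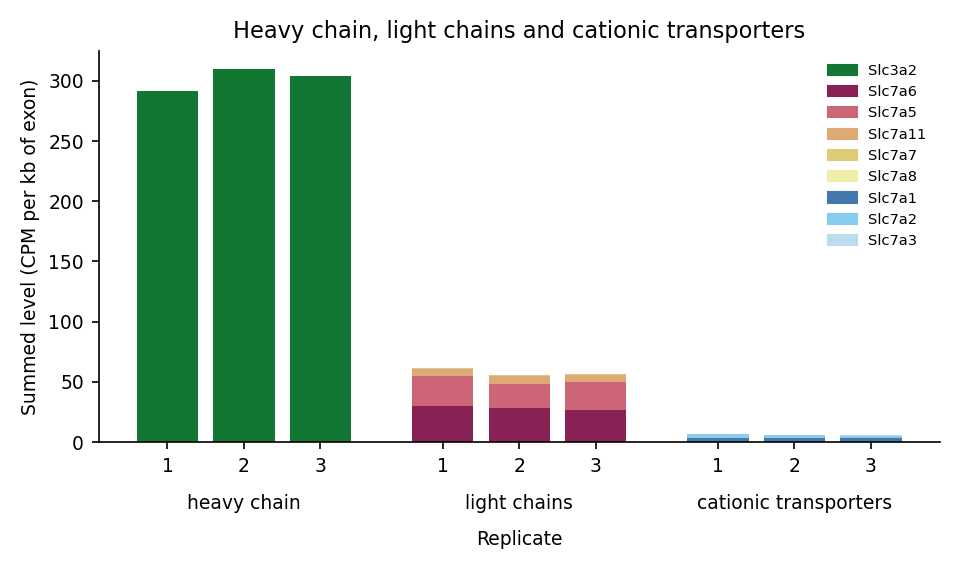
Summed level per kb of exon of the heavy chain, the light chains and the cationic transporters in each of the 3 libraries, stacked by gene. The heavy chain bars lie between 292 and 310, the light chain bars between 55.3 and 61.4 and the cationic bars between 5.60 and 6.45 CPM per kb.

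Variation between libraries was small for most of the set. Of the 6 genes at 10 CPM or more in every library, Slc7a1, Slc7a5, Slc7a6, Slc7a11 and Slc3a2 had a highest library between 1.05 and 1.26 times the lowest. The coefficient of variation was 2.43% for Slc7a11, where counting alone gives 2.53%, and 3.07% for Slc3a2, 5.21% for Slc7a6, 5.48% for Slc7a1 and 11.4% for Slc7a5. Over all 8288 genes at 10 CPM or more the median was 7.12%.

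Slc7a2 stood apart, with replicate 1 at 1.78 times replicate 3. Its coefficient of variation was 28.6%, against 5.18% from counting alone, and 1 of these 6 genes, against 1.71% of the 8288, differed by at least 1.5-fold between its highest and lowest library. Slc7a2 fell in steps from replicate 1 to replicate 3, so neither of these libraries alone stood out. Without replicate 1 its mean was 17.7 CPM and without replicate 3 it was 23.7 CPM, against 20.9 CPM with all 3. Replicate 1 was the highest library for 45.7% of all 11224 detected genes and for 3 of the 7 detected members. Of the 12 detected genes of arginine use and polyamines, 7 were highest in replicate 1, 2 in replicate 2 and 3 in replicate 3. Among them, 2 are named here after their values were seen. Nos2, which encodes the inducible nitric oxide synthase, had 3.83, 2.54 and 2.58 CPM, from only 66, 46 and 48 counts. Ass1, an enzyme gene of arginine synthesis, had 66.5, 66.8 and 69.9 CPM. A link of either gene to Slc7a2 was not tested. Why the Slc7a2 level differed between the libraries was not tested. Among all 7 detected members, Slc7a2 and the low Slc7a7 differed by at least 1.5-fold between libraries, 2 of 7 against 9.33% of the 11224.

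**Figure D4:**
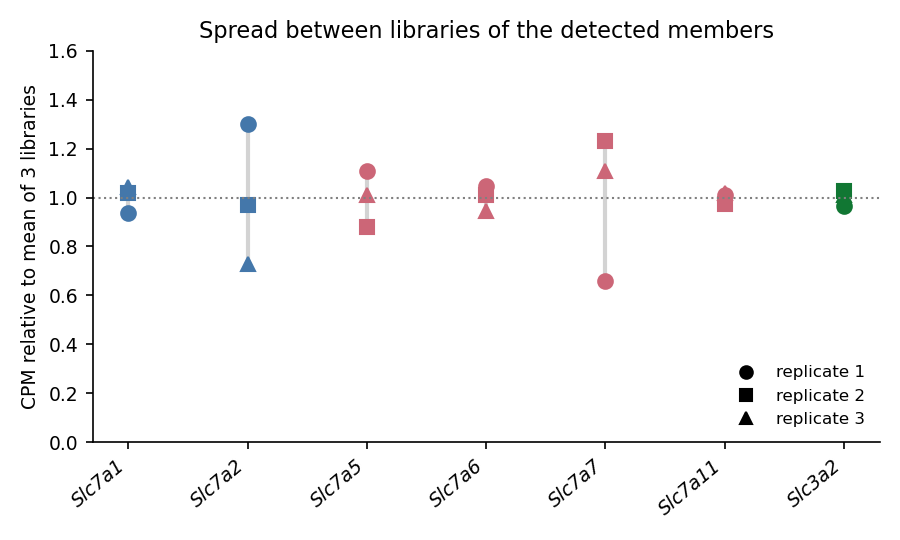
CPM of the 7 detected genes in each library divided by the mean of the gene's 3 libraries. Slc7a2 and Slc7a7 spread most, and Slc7a7 rests on 21 to 41 counts per library; the other genes lie close to 1.

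The rest of the family was silent at this depth. Of the 7 further SLC7 genes and Slc3a1, which encodes rBAT, the other heavy chain, 0 of 8 were detected, and none had more than 4 counts in a library. Only the CD98 heavy chain was thus detected of the 2 heavy chain genes. Over all gene IDs 41.3% were detected, the share to set beside the counts of this list and of those below. Of 19 other amino acid transporters of the plasma membrane, 13 were detected, led per kb by the neutral amino acid transporter gene Slc38a4 at 76.5 ± 3.20, the glutamine and alanine importer Slc38a2 at 44.5 ± 2.60 and the serine and alanine transporter Slc1a4 at 31.1 ± 2.10 CPM per kb. Slc3a2 lay above all 19 on this scale. Slc7a6 had a lower mean than Slc1a4, but their ranges over the 3 libraries overlapped.

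Genes of the amino acid stress response were detected throughout, 21 of 21, beside 41.3% of all gene IDs. The list was led by asparagine synthetase Asns at 527 ± 15.4, the serine synthesis enzyme gene Psat1 at 408 ± 7.42 and Atf4 at 395 ± 16.9 CPM per kb, and Slc3a2 lay below these 3. The median of the list was 24.9 CPM per kb, beside 6.91 over all detected genes with a length and 6.25 over the 7 detected members. Promoters were listed for 20 of these genes. Of them 3, Asns, Atf3 and Nupr1, held the TGATGNAA core shown above for Slc7a11, beside 3.91% of all genes with a listed promoter. The core was also in 1 of 9 genes of cystine use and glutathione and 1 of 24 of mTORC1 sensing. The remaining related lists had none. The motif was chosen after the Slc7a11 sequence had been read, so these counts are a description.

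Downstream of the transported amino acids, 10 of 13 genes of cystine use and glutathione were detected, led by Nfe2l2, which encodes the antioxidant factor NRF2, at 150 ± 7.36, the glutathione-degrading enzyme gene Chac1 at 102 ± 5.44 and the thioredoxin reductase gene Txnrd1 at 100.3 ± 6.21 CPM per kb. Of 16 genes of arginine use and polyamines, 12 were detected, led by spermidine synthase Srm at 189 ± 9.01, the antizyme inhibitor gene Azin1 at 61.0 ± 5.43 and ornithine decarboxylase Odc1 at 47.5 ± 0.467 CPM per kb. All 27 genes of amino acid sensing by mTORC1 were detected, led by the leucyl-tRNA synthetase gene Lars at 127 ± 4.47 and by Lamtor5 and Lamtor2, subunits of the lysosomal Ragulator complex, at 75.7 ± 5.11 and 53.7 ± 4.92 CPM per kb.

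Of 5 partners of CD98 and xCT, 4 were detected. Bsg, which encodes the CD98-associated protein basigin, was at 478 ± 27.3, the integrin β1 gene Itgb1 at 254 ± 10.8 and Cd44, whose variant form stabilizes xCT, at 87.6 ± 2.24 CPM per kb. The Cd44 value covers all forms of the gene, which gene counts do not separate. Slc3a2, at 302 ± 9.27, lay between Bsg and Itgb1 in mean level. The integrin β3 gene Itgb3 had 8, 20 and 19 counts and missed the minimum.

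**Figure D5:**
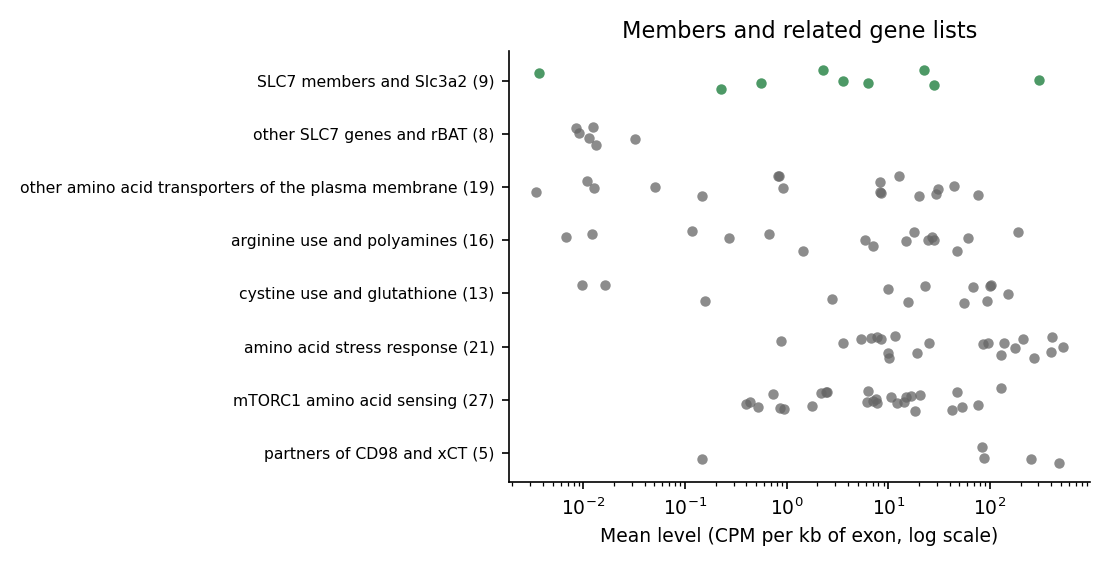
Mean level per kb of exon (log axis, mean of 3 libraries) of the 9 members and of the genes in 7 related lists, with the number of listed genes in brackets; genes with 0 counts in every library are not drawn. The members span from 0.00368 to 302 CPM per kb, and the 8 further SLC7 and rBAT genes lie at the low end.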

How the data were processed

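PolyA RNA of the 12 labelled samples was reverse transcribed from cell lysate, pre-amplified and made into tagmentation libraries, per the labels' protocols. The deposited tables hold raw counts per Entrez gene ID, and CASAVA, STAR and featureCounts with build mm10 were used, per the submitters' processing notes; versions, annotation, strand setting and the treatment of multi-mapped reads are not given in the sources. No molecular identifiers are named in the labels, so reads rather than molecules were counted, and intervals cover counting error only. Files were compared byte by byte, and 9 copies of IL-1 replicate 3 were left out. CPM were computed from library totals. Symbols and positions came from RefSeq (GRCm38.p6, on which mm10 is based), with 25275 of 27179 IDs matched. Lengths came from GENCODE M21, known for 96.1% of the 11224 detected genes, and may differ from the exons counted. A gene was detected at 1 CPM or more in every library. With 1 group left, no edgeR test between groups was possible; edgeR 4.0.16 (R 4.3.3) gave TMM and relative log expression factors as alternatives. The members and lists were chosen with earlier results of these data known. Named genes were the 9 members and the 3 of each list highest per kb, for lists with detected genes; Slc3a1, Nos2, Ass1, Itgb3, Oxa1l, Gm26584, the other macrophage markers and the genes with promoter matches were added after values were seen. Python 3.11.15, numpy 2.4.6, pandas 2.3.3, scipy 1.17.1 and matplotlib 3.10.9 were used.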

Additional observations from a re-analysis of the deposited data

How the results depend on the processing

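No paired analysis was possible because the LPS, PAM and media tables repeat 1 IL-1 library. With coding length in place of merged exons, the ratio of heavy chain to light chains was 3.19 and that of cationic transporters to light chains 0.166; with no length correction they were 3.53 and 0.207. The cationic ratio was 0.126 with the longest transcript and 0.127 with the RefSeq-matched transcript, a length added after the data had been seen. These shifts follow from the lengths themselves, and both directions held under every length. Leaving out 1 replicate gave 5.07 to 5.49 and 0.102 to 0.108. With TMM and relative log expression factors, each applied to the 9 genes, none of 18 means moved beyond 1 SD. These factors lay between 0.982 and 1.02. Means over the same libraries could therefore hardly move, and no conclusion is drawn from this. Between 6 (minimum of 2 CPM) and 8 (0.5 CPM, or 1 count) of the 9 genes were detected. Depth limits Slc7a3, Slc7a7 and Slc7a8, with at most 41 counts in a library.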
